A study of Mus musculus with 20 samples.

Results

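The livers described here came from mice in which *Cideb* had been deleted in hepatocytes, and the comparison is between a high-fat diet of defined amino acids without choline (CDA-HFD) and a Western diet (WD). These are 10 of the 20 livers of the series, 5 on each diet, chosen by their labels for vector and diet. RNA was measured by sequencing of whole liver tissue, and the authors deposited raw read counts per gene. All mice were homozygous for a floxed allele (cidebfl/fl) with loxP sites on either side of exon 2, and the 10 knockout (KO) mice received AAV-TBG-Cre, an adeno-associated virus with Cre under the hepatocyte-specific TBG promoter. The other 10 mice of the series had the same allele and received AAV-TBG-GFP, and they are called WT here. Deletion was therefore limited to hepatocytes, and the other liver cells kept the gene. WD was a food rich in sugar, fat and cholesterol given with sugar water, and CDA-HFD was also low in methionine. The labels list the livers as separate samples without saying more of their origin, so p-values cover the spread between these samples. The labels give 3 months of feeding for either diet. The study's text and figure legends describe a longer course on WD than on CDA-HFD, so that diet and feeding time cannot be told apart. The labels give neither the age nor the sex of the mice. The study describes its main hepatocyte-specific cohorts on these diets as male, with further female cohorts.

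CIDEB is a protein of the lipid droplet surface and the endoplasmic reticulum that promotes the growth of droplets and the loading of very low density lipoprotein (VLDL) with lipid. Sugar drives fatty acid synthesis in the liver through the transcription factors SREBP1c and ChREBP, while cholesterol in food holds SREBP2, the activator of cholesterol synthesis, inactive and supplies oxysterols that activate the receptor LXR. Without choline and methionine the liver makes too little phosphatidylcholine to export VLDL, and it accumulates fat, becomes inflamed and scars.

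Gene counts summed to 11845996 to 15743111 reads in a liver, and the difference between the diets was not larger than the spread (difference of means 793460 reads, exact two-sided permutation test, p = 0.373, adjusted over 5 library measures 0.466). The share of reads outside counted features was higher on CDA-HFD, 27.0% ± 1.13 (SD, n = 5) against 23.6% ± 1.87 (exact permutation p = 0.00794, the smallest the design allows, adjusted 0.0397). Reads aligned to several places were fewer on CDA-HFD, 20.6% ± 1.62 against 24.4% ± 2.65 (exact permutation p = 0.0159, adjusted 0.0397). Ambiguous reads were 0.892% against 0.835% (exact permutation p = 0.0238, adjusted 0.0397). Liver 5 on CDA-HFD stood apart from the other livers: on the leading principal component, which held 49.1% of the variance, it lay at 87.06, the other CDA-HFD livers between 13.99 and 33.62, and the WD livers between -51.42 and -22.46. It had the highest summed levels of the lipid-associated and general macrophage lists and the lowest summed level of secreted hepatocyte genes, so fold changes without it are given beside the results that rest on it. In whole tissue, fewer cells of a type and less RNA per cell cannot be told apart.

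Unless another unit is named, levels below are in CPM, the read count scaled to a common library total with TMM factors. Levels by liver are listed for livers 1 to 5 of a group, and fold changes are CDA-HFD over WD. Adjusted p-values are those of edgeR's quasi-likelihood F test over all genes tested. Errors are approximate standard errors (SE), the size of the log2 fold change divided by the square root of the F statistic of that test. Of 16387 genes tested, 2792 passed an adjusted p under 0.05. Of all genes tested, 9.19% rose (1506) and 7.85% fell (1286), 5.28% rose at least 2-fold (865) and 7.27% moved at least 2-fold in either direction (1192). Without liver 5 on CDA-HFD 2881 genes passed, 1495 up and 1386 down, of which 2431 had passed in the same direction with it. With libraries scaled by size alone, the median of all genes moved from 0.00 to 0.25 on the log2 scale and the share of passing genes that rose from 53.9% to 85.9%, so changes are given relative to the TMM scale. In the WT livers 51.1% of 16726 genes tested passed between the same diets, and 2368 genes passed in both genotypes in the same direction, which is 84.8% of the KO list and 27.7% of the WT list.

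**Figure D1:**
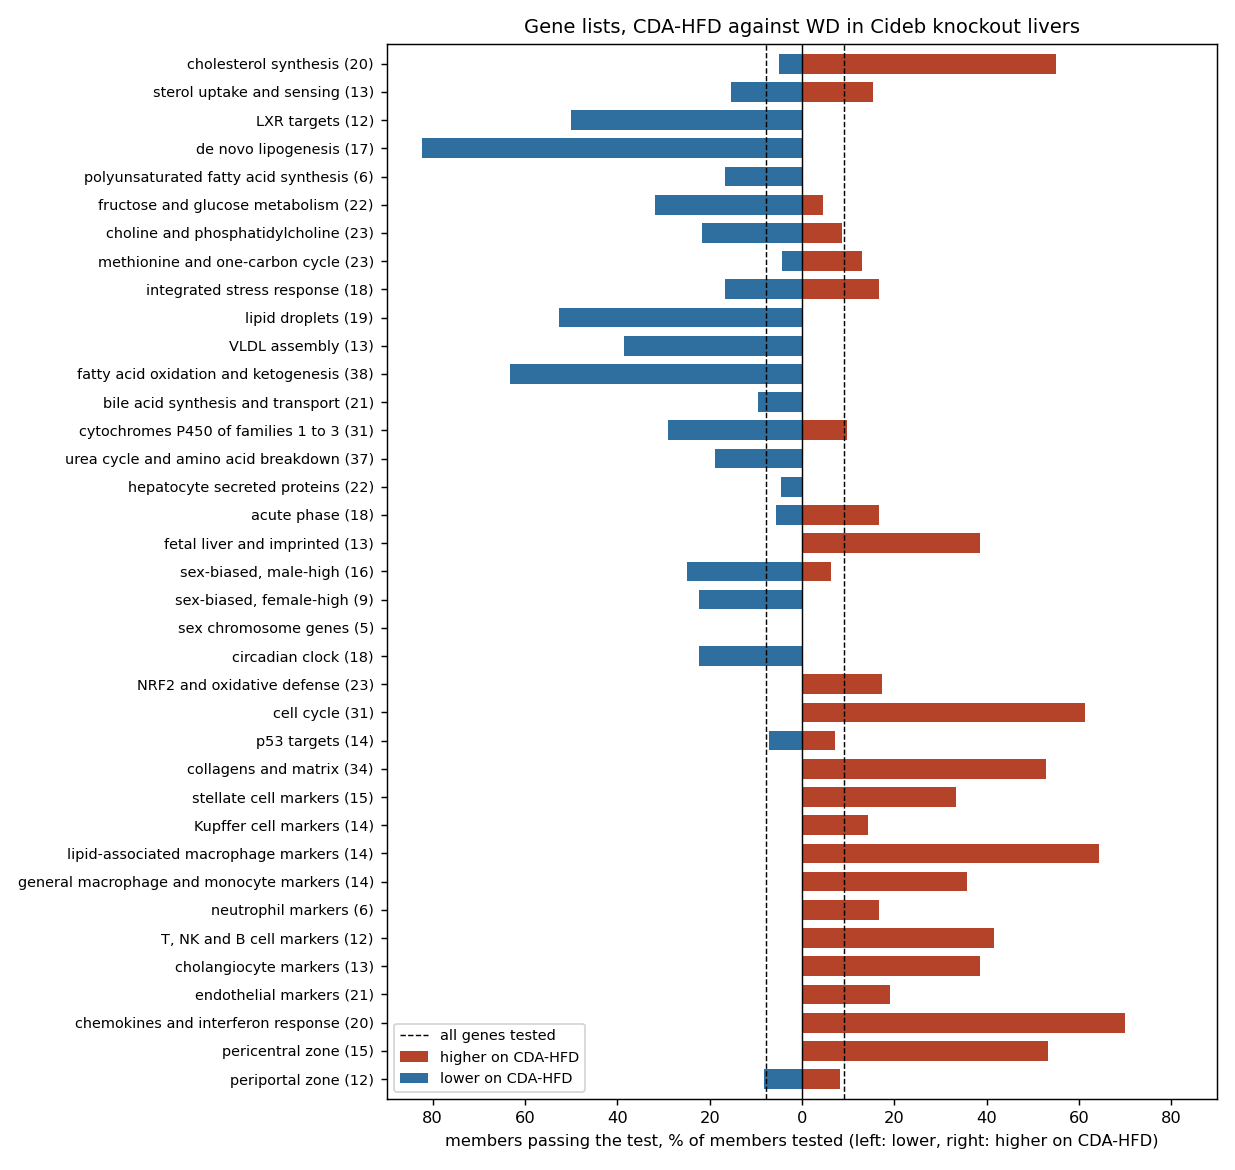
Share of the tested members of each gene list that passed the test, in % of members tested (number in brackets), with members higher on CDA-HFD to the right and members lower to the left. Dashed lines mark the shares over all genes tested, 9.19% higher and 7.85% lower. De novo lipogenesis, fatty acid oxidation and lipid droplet genes lie to the left, and interferon response, macrophage, cell cycle and cholesterol synthesis genes to the right.

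The targeted gene had between 0 and 6 reads in every KO liver and between 35 and 100 in every WT liver, which matches the labels. *Cideb* (chr14:55754050-55758458, minus strand, GRCm38) overlaps *Nop9* (chr14:55745693-55755500, plus strand), and without a stated use of strand in the counting its reads cannot be told apart from those of *Nop9* there. *Nop9* stood at 29.3 ± 3.48 CPM on CDA-HFD and 26.2 ± 3.30 on WD (SD, n = 5), a log2 fold change of 0.17 ± 0.11 (adjusted p = 0.336). Both other members of the CIDE family fell. *Cidea*, a droplet fusion protein of brown fat and fatty livers, stood at 49.1, 28.4, 18.1, 11.4 and 94.7 CPM on WD and at 0, 0.122, 0.0633, 0 and 0.235 CPM on CDA-HFD. These are 2547 reads in all on WD and 7 on CDA-HFD, with no overlap between the groups (log2 fold change -8.69 ± 0.84, adjusted p = 0.000126, a size that depends on the prior count of the fit). *Cidec*, which encodes the droplet fusion protein of white fat (chr6:113424634-113435760), stood at 136, 102, 114, 35.9 and 127 CPM on WD and at 53.9, 29.6, 22.7, 16.4 and 66.9 on CDA-HFD. Its groups overlapped through WD liver 4, and its fall of 2.72-fold passed only narrowly (log2 -1.44 ± 0.42, adjusted p = 0.0366).

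De novo lipogenesis, which turns sugar carbon into fatty acids, had the largest share of falls among the 37 gene lists described here. Of its 17 members tested, 14 fell and 0 rose, and the median log2 fold change was -1.74 against 0.00 over all genes tested. The groups did not overlap in 12 members, against 15.2% of all genes tested. *Scd1*, the stearoyl-CoA desaturase that makes oleate (chr19:44394455-44407879, minus strand), stood at 57637, 35562, 48108, 37100 and 52333 CPM on WD and at 15.0, 6.51, 7.15, 13.3 and 68.0 CPM on CDA-HFD. Its share of all reads on genes was 3.28% to 5.53% in WD livers and 0.000715% to 0.0088% in CDA-HFD livers. The fall was 2093-fold (log2 -11.03 ± 0.90, adjusted p = 5.83e-05) and 4403-fold without liver 5, whose level was the highest of the CDA-HFD group.

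The enzymes that make palmitate and its precursors fell less far. *Fasn*, the fatty acid synthase, stood at 4988, 2748, 4484, 1241 and 2725 CPM on WD and at 554, 562, 739, 399 and 353 on CDA-HFD, a fall of 6.21-fold (log2 -2.63 ± 0.36, adjusted p = 0.000903). *Me1*, the malic enzyme that supplies NADPH, stood at 380, 303, 404, 151 and 231 CPM on WD and at 31.7, 31.6, 20.8, 20.6 and 17.9 on CDA-HFD, a fall of 12-fold (log2 -3.58 ± 0.29, adjusted p = 5.83e-05). Every liver on CDA-HFD lay below every liver on WD for both genes. The carboxylases *Acaca* (log2 -1.74) and *Acacb* (-2.36), the elongase *Elovl6* (-2.24), the citrate lyase *Acly* (-1.24) and the acyltransferase *Gpam* (-1.25) fell too. *Scd2* (-0.15), *G6pdx* (0.39) and *Pgd* (-0.16) did not pass, and the last 2 supply NADPH from glucose by another route than *Me1*.

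The regulators of the pathway fell with their targets. *Srebf1*, which encodes SREBP1c, stood at 638, 594, 795, 607 and 732 CPM on WD and at 125, 199, 270, 143 and 85.1 on CDA-HFD, a fall of 4.09-fold (log2 -2.03 ± 0.27, adjusted p = 0.000748). *Mlxipl*, which encodes ChREBP, fell by 1.01 on the log2 scale (adjusted p = 0.00233). *Thrsp*, a lipogenic protein induced by carbohydrate, stood at 803, 840, 849, 485 and 1116 CPM on WD and at 120, 45.6, 297, 32.8 and 65.4 on CDA-HFD. It varied more between the CDA-HFD livers than *Srebf1* did, and it fell 7.29-fold (log2 -2.87 ± 0.55, adjusted p = 0.00652). *Pnpla3*, a lipid droplet hydrolase under SREBP1c, stood at 36.6, 7.74, 14.8, 4.12 and 18.2 CPM on WD and at 0.737, 1.10, 0.633, 0.840 and 1.41 on CDA-HFD, a fall of 17-fold (log2 -4.08 ± 0.55, adjusted p = 0.000883).

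Sugar use fell beside fatty acid synthesis. Of 22 fructose and glucose metabolism genes tested, 7 fell and 1 rose, with a median of -0.54. *Pklr*, the liver pyruvate kinase, stood at 662, 869, 597, 414 and 493 CPM on WD and at 147, 168, 211, 97.7 and 99.7 on CDA-HFD (log2 -2.07 ± 0.26, adjusted p = 0.000538). *Khk*, the ketohexokinase that opens fructose breakdown, stood at 450, 537, 674, 480 and 477 CPM on WD and at 196, 210, 266, 163 and 149 on CDA-HFD (log2 -1.41 ± 0.17, adjusted p = 0.000502). Neither gene had overlapping groups. *Tkfc*, a later enzyme of fructose breakdown, fell as well (-0.87, adjusted p = 0.0284), as did the glycogen phosphorylase *Pygl* (-1.14) and the glucose-6-phosphatase *G6pc* (-1.06). *Gckr* fell by 0.80 on the log2 scale (adjusted p = 0.00338). *Hk1*, a hexokinase of non-hepatocyte cells, was the member that rose (0.89, adjusted p = 0.0392).

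Falls outnumbered rises among LXR targets. Of 12 LXR targets tested, 6 fell and 0 rose (median -0.59): *Srebf1*, the sterol exporters *Abcg5* (-1.27) and *Abcg8* (-0.89), the phospholipid transfer protein *Pltp* (-1.19), the phospholipid remodelling enzyme *Lpcat3* (-1.07) and the cholesterol exporter *Abca1* (-0.65). *Abcg5* stood at 160, 109, 114, 178 and 257 CPM on WD and at 68.0, 54.6, 83.6, 80.4 and 52.0 on CDA-HFD, with no overlap (adjusted p = 0.00537). *Nr1h3*, the gene of LXR alpha itself, was at -0.04 and did not pass, and *Abcg1* was at 0.53. Of 6 polyunsaturated fatty acid synthesis genes tested, 1 fell. This was *Elovl5*, an elongase, which stood at 1343, 1063, 1161, 786 and 1402 CPM on WD and at 264, 246, 284, 261 and 161 on CDA-HFD (log2 -2.24 ± 0.20, adjusted p = 8.36e-05). The desaturases *Fads1* (-0.40) and *Fads2* (-0.63, adjusted p = 0.0927) did not pass.

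Lipid droplet genes fell or did not pass. Of 19 tested, 10 fell and 0 rose, with a median of -0.50 (9 and 0 without liver 5 on CDA-HFD, 5 and 0 with libraries scaled by size alone). *Plin2*, the perilipin that coats droplets in hepatocytes, stood at 810, 571, 850, 508 and 793 CPM on WD and at 488, 339, 339, 340 and 357 on CDA-HFD (log2 -0.92 ± 0.17, adjusted p = 0.00615). All 5 CDA-HFD livers lay below the lowest WD liver. *Mogat1*, a monoacylglycerol acyltransferase, stood at 12.1, 8.79, 11.5, 3.98 and 7.17 CPM on WD and at 1.21, 0.365, 1.14, 0.420 and 0.176 on CDA-HFD (log2 -3.71 ± 0.47, adjusted p = 0.000562). The droplet-budding gene *Fitm1* fell by 2.09 on the log2 scale (adjusted p = 0.000374), and its relative *Fitm2* by 0.55 (adjusted p = 0.0382). The triglyceride synthases differed little, *Dgat1* at -0.36 (adjusted p = 0.0166) and *Dgat2* at -0.44 (adjusted p = 0.0806), and the lipase *Pnpla2* (0.01), *Plin5* (-0.33) and *Hsd17b13* (-0.07) did not pass.

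VLDL assembly genes showed 5 falls and 0 rises among 13 tested, with a median of -0.23. *Mttp*, the transfer protein that loads lipid onto apolipoprotein B, fell by 0.88 on the log2 scale (adjusted p = 0.00909), and *Sar1b*, a GTPase of the vesicles that carry lipoproteins, by 0.77 (adjusted p = 0.00265). *Ces1d*, a carboxylesterase that mobilises stored triglyceride, stood at 939, 1036, 924, 838 and 796 CPM on WD and at 350, 392, 459, 605 and 168 on CDA-HFD (log2 -1.20 ± 0.27, adjusted p = 0.013). Its groups did not overlap. *Apob* stood at 20284, 21090, 15275, 22997 and 19944 CPM on WD and at 16744, 16344, 17447, 25263 and 9894 on CDA-HFD, overlapping groups that did not pass (log2 -0.22 ± 0.28, adjusted p = 0.635). *Tm6sf2*, a lipidation factor, was at -0.49 and did not pass.

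Fatty acid oxidation and ketogenesis, the list with the most members tested, had the largest number of falls among the 37 lists. Of 38 genes tested, 24 fell and 0 rose (26 and 0 without liver 5), with a median of -0.61. Over all genes tested 7.85% fell. *Acaa1b*, the peroxisomal thiolase, stood at 2567, 2123, 3793, 1588 and 2071 CPM on WD and at 513, 601, 464, 605 and 304 on CDA-HFD, a fall of 4.88-fold (log2 -2.29 ± 0.26, adjusted p = 0.000339). *Cyp4a14*, a fatty acid omega-hydroxylase, stood at 2275, 2107, 2665, 1321 and 1487 CPM on WD and at 446, 431, 225, 759 and 166 on CDA-HFD (log2 -2.28 ± 0.38, adjusted p = 0.00316). Neither gene had overlapping groups.

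Other peroxisomal and microsomal members fell too, among them *Ehhadh* (-1.60), *Cyp4a10* (-1.69) and *Hsd17b4* (-0.72), as did the cytosolic thioesterase *Acot1* (-2.19). In the mitochondrial part of the pathway the genes that fell included *Cpt2* (-0.59), *Slc25a20* (-0.66), *Acadvl* (-0.47), *Hadh* (-0.55) and *Acaa2* (-0.56). *Cpt1a*, the carnitine palmitoyltransferase of the outer membrane, was at -0.14 and did not pass (adjusted p = 0.469). *Ppara*, the receptor that activates much of this list, had a mean of 487 CPM on CDA-HFD and 856 on WD, and it fell by 0.81 on the log2 scale (SE 0.19, adjusted p = 0.0157). Cyp4a genes are close paralogs, and reads shared between them may have been split or dropped in the counting.

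**Figure D2:**
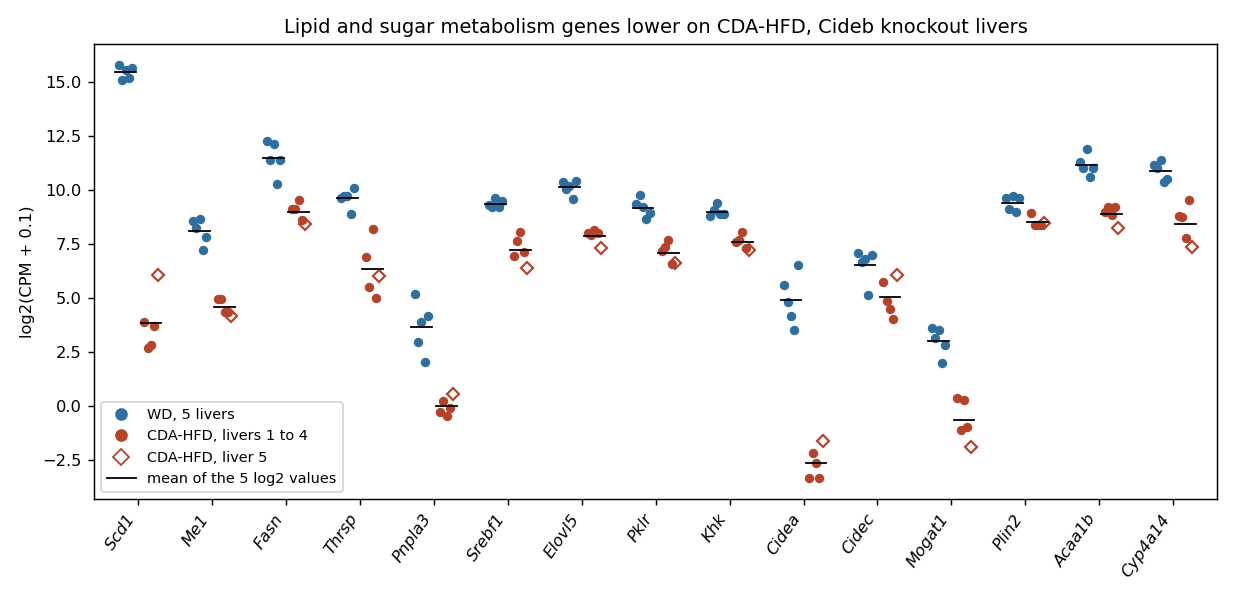
Level in each KO liver, as log2(CPM + 0.1), of 15 genes of fatty acid synthesis, sugar use, lipid droplets and fatty acid oxidation, with WD in blue, CDA-HFD in red and the mean of the 5 log2 values as a black line. Open diamonds are liver 5 on CDA-HFD. *Scd1* on CDA-HFD lies between 6.51 and 68.0 CPM, below all WD livers at 35562 CPM or more, and in *Cidec* the groups overlap.

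Cholesterol synthesis moved the other way from fatty acid synthesis. Of 20 genes tested, 11 rose and 1 fell (13 and 1 without liver 5 on CDA-HFD), 6 rose at least 2-fold, and the median was 0.78. *Sqle*, the squalene epoxidase, stood at 4.75, 5.34, 4.50, 3.53 and 2.72 CPM on WD and at 113, 83.2, 101, 81.3 and 57.0 on CDA-HFD, a rise of 20.9-fold (log2 4.39 ± 0.23, adjusted p = 1.82e-06). *Idi1*, the isopentenyl diphosphate isomerase, stood at 2.73, 3.23, 3.60, 2.58 and 1.96 CPM on WD and at 21.6, 14.4, 16.3, 17.1 and 11.6 on CDA-HFD, a rise of 5.76-fold (log2 2.52 ± 0.20, adjusted p = 5.83e-05). *Cyp51*, the lanosterol demethylase, stood at 47.7, 41.3, 44.7, 25.8 and 30.9 CPM on WD and at 203, 156, 167, 141 and 121 on CDA-HFD, a rise of 4.14-fold (log2 2.05 ± 0.19, adjusted p = 9.47e-05). In all 3 genes the lowest CDA-HFD liver was more than 2-fold above the highest WD liver.

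Rises along the pathway were uneven. *Hmgcs1*, the synthase early in the route, rose by 1.00 (adjusted p = 0.0102), *Mvk* by 1.70 and *Msmo1* by 1.61. *Fdps* at 0.13 and *Lss* at 0.51 did not pass, and *Sc5d* was the member that fell (-0.83, adjusted p = 0.031). *Srebf2*, which encodes SREBP2, stood at 59.1, 56.1, 74.8, 50.3 and 63.1 CPM on WD and at 128, 111, 121, 96.5 and 103 on CDA-HFD (log2 0.88 ± 0.12, adjusted p = 0.000869), with no overlap. Of 13 sterol uptake and sensing genes, 2 rose and 2 fell. *Soat1*, the cholesterol esterifying enzyme of macrophages, rose by 1.15 (adjusted p = 0.0411, 0.62 without liver 5), *Soat2*, its hepatocyte relative, fell by 0.70 (adjusted p = 0.00378), and *Insig2*, a brake on SREBP processing, fell by 1.01 (adjusted p = 0.0197).

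Most genes that use the missing nutrients did not pass, and those that passed went in both directions. Of 23 choline and phosphatidylcholine genes tested, 2 rose and 5 fell, with a median of -0.18 (1 and 6 without liver 5). Over all genes tested 9.19% rose and 7.85% fell. With libraries scaled by size alone 5 rose and 3 fell, and the median was 0.06. *Lpcat3* stood at 179, 175, 169, 148 and 160 CPM on WD and at 92.9, 83.3, 83.1, 70.7 and 65.9 on CDA-HFD (log2 -1.07 ± 0.11, adjusted p = 0.000161). *Chpt1*, the choline phosphotransferase, stood at 311, 357, 274, 344 and 415 CPM on WD and at 176, 161, 171, 214 and 116 on CDA-HFD (log2 -1.02 ± 0.16, adjusted p = 0.0023). In neither gene did the groups overlap. The choline transporter *Slc44a1* fell by 0.91 (adjusted p = 0.00311). *Pemt*, the methyltransferase that makes phosphatidylcholine without choline, was at 0.13 (adjusted p = 0.545), and *Pcyt1a*, the rate-setting enzyme of the choline route, at -0.17, neither passing.

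Among 23 methionine and one-carbon cycle genes tested, 3 rose and 1 fell, where 9.19% of all genes tested rose and 7.85% fell. *Mat2a*, the methionine adenosyltransferase of non-hepatocyte and growing cells, rose by 0.54 (adjusted p = 0.00797), and *Gnmt*, which disposes of excess methyl groups, fell by 0.98 (adjusted p = 0.0195). *Psat1*, an enzyme of serine synthesis, stood at 1.94, 1.65, 2.70, 0.589 and 1.21 CPM on WD and at 9.11, 10.2, 5.57, 2.94 and 5.82 on CDA-HFD (log2 2.07 ± 0.40, adjusted p = 0.00701). Its groups did not overlap. *Mat1a* (-0.41), *Bhmt* (-0.39) and *Cbs* (-0.62) did not pass.

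In the integrated stress response, ATF4 induces genes of amino acid supply, and the members that passed went in both directions. Of 18 genes tested, 3 rose and 3 fell, where 9.19% of all genes tested rose and 7.85% fell. With libraries scaled by size alone 5 rose and 2 fell. *Atf4* itself was at 0.11 without passing. *Asns*, the asparagine synthetase, stood at 0.616, 0.0752, 0.630, 0.589 and 0.302 CPM on WD and at 20.2, 12.3, 11.6, 7.35 and 10.3 on CDA-HFD, a rise of 27.9-fold (log2 4.80 ± 0.40, adjusted p = 7.21e-05). *Slc7a11*, the cystine importer, stood at 0.704, 0.0752, 0.360, 0.0736 and 0.226 CPM on WD and at 3.15, 1.70, 2.22, 1.75 and 9.05 on CDA-HFD (log2 3.66 ± 0.67, adjusted p = 0.0051). Liver 5 was the highest, and the rise was 12.6-fold with it and 7.80-fold without it. *Vldlr*, a lipoprotein receptor, went down, from 20.6, 10.1, 19.5, 11.3 and 15.7 CPM on WD to 1.94, 1.52, 2.15, 1.68 and 5.64 on CDA-HFD (log2 -2.56 ± 0.37, adjusted p = 0.00129). *Chac1*, a glutathione-degrading enzyme, fell by 2.08 (adjusted p = 0.0118) and *Cebpb* by 0.66, while *Atf3* rose by 1.84 (adjusted p = 0.0336, 1.21 without liver 5). *Trib3* (-0.14), *Ddit3* (-0.10), *Fgf21* (1.16) and *Gdf15* (-0.56) did not pass.

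The C/EBP-ATF letters TGATGNAA are shown because the members of this list that passed went in both directions. RefSeq promoters (GRCm38.p6, 250 bases before to 50 after the gene start) were found for 16 of the 18 genes, and 8 of them held the letters on either strand, 3 of the 3 that rose and 5 of the 13 others (*Chac1* and *Vldlr*, which fell, and *Trib3*, *Fgf21* and *Nupr1*, which did not pass), against 3.97% of 32851 promoters. The motif was chosen after the results were known, and a match is a description of letters only. Windows of 25 bases on either side of the match, in the direction of the gene and with the match in capitals, follow for the 5 of these genes that rose or fell. They lie at chr6:7693200-7693257 (*Asns*, minus strand), chr3:50443647-50443704 (*Slc7a11*, minus strand), chr1:191183411-191183468 (*Atf3*, minus strand), chr2:119351024-119351081 (*Chac1*, plus strand) and chr19:27216795-27216852 (*Vldlr*, plus strand).
Asns: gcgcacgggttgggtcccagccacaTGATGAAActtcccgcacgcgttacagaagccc
Slc7a11: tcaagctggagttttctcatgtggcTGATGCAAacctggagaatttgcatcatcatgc
Atf3: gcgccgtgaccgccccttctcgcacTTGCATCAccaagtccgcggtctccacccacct
Chac1: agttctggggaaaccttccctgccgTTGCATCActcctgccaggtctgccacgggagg
Vldlr: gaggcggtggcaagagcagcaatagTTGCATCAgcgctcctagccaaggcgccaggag

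Of these 5 genes, *Asns* (4.80), *Slc7a11* (3.66) and *Atf3* (1.84) rose, and *Chac1* (-2.08) and *Vldlr* (-2.56) fell. *Cebpb*, which also fell, did not hold the letters in this window.

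Interferon-induced genes rose together. Of 20 chemokine and interferon response genes tested, 14 rose and 0 fell (16 and 0 without liver 5 on CDA-HFD), 12 at least 2-fold, with a median of 1.52, and the groups did not overlap in 14. *Ifit1*, which binds viral RNA, stood at 4.49, 6.99, 7.38, 11.4 and 5.88 CPM on WD and at 53.9, 64.3, 38.9, 166 and 18.5 on CDA-HFD, a rise of 9.41-fold (log2 3.23 ± 0.52, adjusted p = 0.00243). *Isg15*, the ubiquitin-like modifier, stood at 2.90, 2.78, 4.23, 3.39 and 2.34 CPM on WD and at 20, 19.1, 13.4, 27.8 and 13.9 on CDA-HFD (log2 2.59 ± 0.23, adjusted p = 8.36e-05). *Usp18*, which removes ISG15, stood at 11.9, 9.02, 13.5, 12.1 and 10.7 CPM on WD and at 69.3, 54.6, 48.8, 67.4 and 46.7 on CDA-HFD (log2 2.32 ± 0.15, adjusted p = 8.22e-06). Liver 4 on CDA-HFD was the highest for *Ifit1* and *Isg15*, and liver 5, the highest for macrophage genes, was the lowest for *Ifit1* and *Usp18*.

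*Oas1a* (2.56), *Oasl2* (2.29), *Ifit3* (2.63), *Ifit2* (1.88), *Mx1* (2.03), *Irf7* (1.84) and *Rsad2* (1.76) rose as well. Of the chemokine genes, *Ccl5* (1.26, adjusted p = 0.0165) and *Cxcl16* (0.88, adjusted p = 0.0451) passed, while *Ccl2* (0.00), *Cxcl1* (0.20), *Cxcl9* (0.45) and *Cxcl10* (1.13) did not.

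The letters of the interferon-stimulated response element are shown for genes that rose, since 14 of 20 members rose and none fell. RefSeq promoters were found for 18 of the 27 listed genes, and GAAANNGAAA was present on either strand in 7, of which 5 were among the 8 genes with a promoter that rose and 2 among the 5 tested that did not, against 3.44% of 32851 promoters. As above, the motif was chosen after the results were known and the windows hold 25 bases on either side of the first match, which is in capitals. They lie at chr19:34640760-34640819 (*Ifit1*, plus strand), chr19:34583348-34583407 (*Ifit3*, plus strand), chr4:156200862-156200921 (*Isg15*, minus strand), chr5:120907511-120907570 (*Oas1a*, minus strand) and chr12:26456538-26456597 (*Rsad2*, minus strand).
Ifit1: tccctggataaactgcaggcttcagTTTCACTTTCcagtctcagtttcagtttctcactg
Ifit3: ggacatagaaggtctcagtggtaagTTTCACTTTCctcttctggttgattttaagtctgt
Isg15: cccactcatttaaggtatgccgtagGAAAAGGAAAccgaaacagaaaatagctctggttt
Oas1a: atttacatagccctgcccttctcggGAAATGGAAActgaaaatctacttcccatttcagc
Rsad2: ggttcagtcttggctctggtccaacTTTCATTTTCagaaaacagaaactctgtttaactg

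Of 15 cholesterol synthesis genes with a promoter, 1 (*Hmgcs1*) held the sterol regulatory letters TCACNCCAC, against 1.24% of all promoters.

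Transcripts of the imprinted *Dlk1*-*Meg3* region rose from near nothing. *Meg3*, a maternally expressed noncoding RNA (chr12:109541001-109571726, plus strand), stood at 0.968, 0.526, 0.810, 1.40 and 1.06 CPM on WD and at 208, 183, 261, 272 and 210 on CDA-HFD, a rise of 235-fold (log2 7.88 ± 0.22, adjusted p = 5.35e-09). *Rian*, a noncoding RNA further along the same strand (chr12:109603940-109661716), stood at 0.352, 0.601, 0.540, 0.589 and 0.226 CPM on WD and at 75.4, 65.4, 89.8, 127 and 67.6 on CDA-HFD (log2 7.49 ± 0.28, adjusted p = 7.58e-08). *Rtl1*, a retrotransposon-derived gene on the opposite strand (chr12:109589193-109600330, minus strand), stood at 0.264, 0.376, 0.630, 0.147 and 0.226 CPM on WD and at 90.9, 124, 110, 166 and 33.6 on CDA-HFD (log2 8.32 ± 0.52, adjusted p = 7.19e-06). All 5 livers on CDA-HFD lay above all WD livers in these 3 genes, and liver 5 was the lowest in *Rtl1*. *Mirg* (chr12:109729764-109749460) had 313 reads over the CDA-HFD livers and 2 over the WD livers, a ratio of 125 with an exact 95% counting interval of 34.3 to 1036. *Dlk1*, the paternally expressed gene at the other end of the region (chr12:109452823-109463336), had a mean of 0.302 CPM on CDA-HFD and 0.0951 on WD and was not tested. An antisense partner of *Rtl1* is known, and without strand its reads cannot be told apart from those of *Rtl1*.

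Other fetal liver genes rose less or not at all. Of 13 genes in the fetal liver and imprinted list, 5 rose, and besides *Meg3*, *Rian* and *Mirg* these were *Afp*, alpha-fetoprotein (0.96 ± 0.19, adjusted p = 0.00703), and *Tspan8* (3.28, adjusted p = 0.0265, 1.87 without liver 5). *H19* (0.24), *Igf2* (0.50), *Peg3* (-0.17) and *Cdkn1c* (0.54) did not pass. *Gpc3* was at 1.09 with liver 5 and at 0.07 without it, passing in neither case.

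Cell cycle genes rose in 19 of 31 tested members and fell in 0, 16 at least 2-fold, with a median of 1.02, and without liver 5 on CDA-HFD the count was again 19 and 0 with a median of 0.88. *Ccnd1*, the cyclin of entry into the cycle, stood at 68.1, 34.3, 101, 22.3 and 23.6 CPM on WD and at 218, 261, 234, 267 and 141 on CDA-HFD (log2 2.17 ± 0.40, adjusted p = 0.00553). *Mki67*, a marker of dividing cells, stood at 12.1, 6.76, 10.1, 6.11 and 8.98 CPM on WD and at 24.0, 25.6, 17, 15.3 and 27.9 on CDA-HFD (log2 1.32 ± 0.22, adjusted p = 0.00297). Neither gene had overlapping groups. Mitotic genes such as *Top2a* (1.43), *Cdk1* (1.25), *Plk1* (1.65) and *Ccnb2* (1.34) rose, while *Aurka* (0.24), *Birc5* (0.54) and *Cenpa* (0.39) did not pass. Of the replication genes *Mcm4* (0.74), *Mcm5* (1.2), *Mcm6* (1.02) and *Rrm1* (0.41) rose, while *Pcna* (0.07), *Rrm2* (0.11), *Tyms* (0.18) and *Mcm2* (0.33) did not pass. Of 14 p53 targets, 1 rose (*Tnfrsf10b*, not passing without liver 5) and 1 fell (*Bbc3*), and *Cdkn1a* was at -0.64 without passing. The bulk values do not say which cells were dividing.

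**Figure D3:**
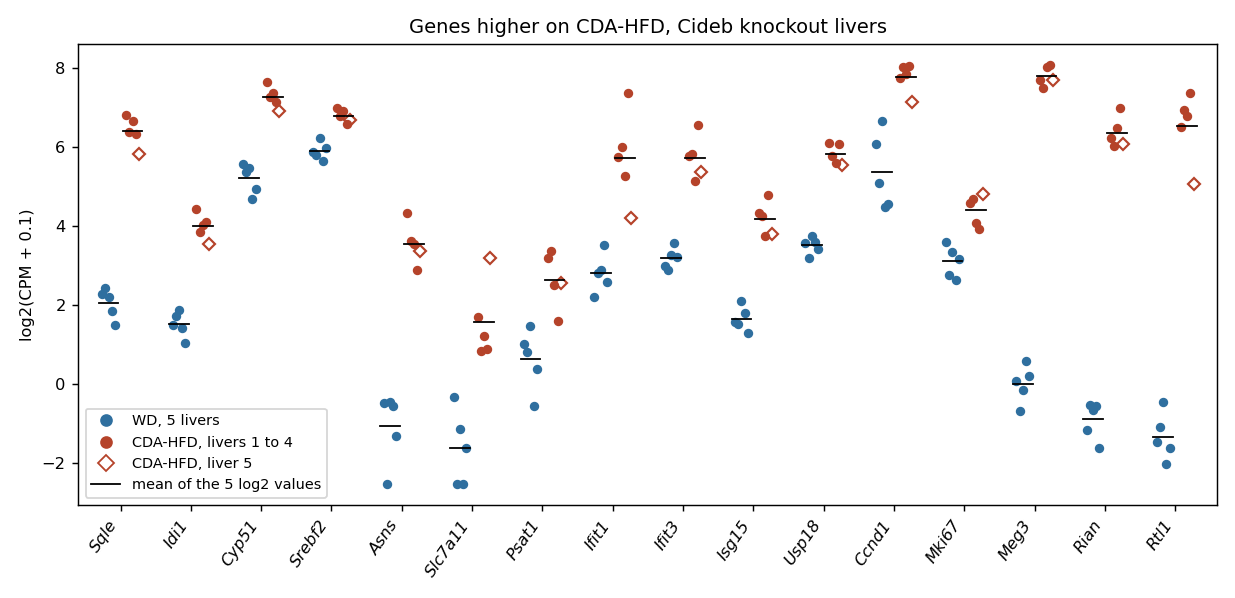
Level in each KO liver, as log2(CPM + 0.1), of 16 genes higher on CDA-HFD, grouped from left to right as cholesterol synthesis, amino acid supply, interferon response, cell cycle and the *Dlk1*-*Meg3* region, with WD in blue, CDA-HFD in red and the mean of the 5 log2 values as a black line. *Meg3* lies at 1.40 CPM or below in all WD livers and at 183 CPM or above in all CDA-HFD livers, and liver 5 on CDA-HFD (open diamonds) is the lowest of its group for *Sqle*, *Ifit1* and *Rtl1* and the highest for *Slc7a11*.

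Genes of the pericentral zone, the hepatocytes around the central vein under Wnt control, rose in 8 of 15 cases and fell in 0 (median 0.61). *Glul*, the glutamine synthetase of that zone, stood at 1245, 1742, 1925, 1254 and 2157 CPM on WD and at 2558, 2281, 3006, 2262 and 3445 on CDA-HFD (log2 0.70 ± 0.20, adjusted p = 0.0375). *Cyp1a2* stood at 110, 175, 175, 293 and 227 CPM on WD and at 504, 595, 623, 633 and 431 on CDA-HFD (log2 1.51 ± 0.23, adjusted p = 0.00182). *Rhbg*, an ammonium transporter, stood at 10.9, 16.3, 19.1, 14.6 and 18.4 CPM on WD and at 49.7, 39.3, 47.4, 32.0 and 70.1 on CDA-HFD (log2 1.59 ± 0.21, adjusted p = 0.000822). In these 3 genes every CDA-HFD liver was above every WD liver. The Wnt targets *Lgr5* (1.06), *Axin2* (0.88, not passing without liver 5) and *Znrf3* (0.38) rose, and of 21 endothelial genes 4 rose and 0 fell, among them the endothelial Wnt ligand *Wnt2* and the Wnt amplifier *Rspo3* (0.95, adjusted p = 0.0145). *Wnt2* stood at 1.94, 2.71, 2.61, 2.06 and 2.34 CPM on WD and at 6.36, 5.23, 4.43, 5.95 and 6.76 on CDA-HFD (log2 1.30 ± 0.17, adjusted p = 0.000841), and its partner *Wnt9b* was at 0.29 without passing.

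Of 12 periportal genes, 1 rose and 1 fell, with a median of -0.08 that changes sign with library size scaling. *Cdh1*, E-cadherin, stood at 19.3, 18.0, 25.7, 13.8 and 2.64 CPM on WD and at 86.9, 96.6, 86.8, 104 and 125 on CDA-HFD (log2 2.66 ± 0.41, adjusted p = 0.00193). It is also an epithelial gene of bile ducts. *Sds*, the serine dehydratase, fell by 1.18 (adjusted p = 0.0198). *Cyp2e1*, a pericentral P450, stood at 5974 ± 1475 CPM on CDA-HFD and 5933 ± 1679 on WD (SD, n = 5) and did not pass.

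Detoxification and amino acid genes had more falls than rises. Of 31 cytochromes P450 of families 1 to 3, 9 fell and 3 rose (median -0.43), where 7.85% of all genes tested fell and 9.19% rose. With libraries scaled by size alone 8 fell and 5 rose, and the median was -0.12. *Cyp2c29*, an epoxygenase induced through CAR, stood at 283, 289, 203, 535 and 798 CPM on WD and at 56.8, 27.3, 60.7, 50.5 and 21.8 on CDA-HFD (log2 -3.28 ± 0.43, adjusted p = 0.000687). *Cyp2b10*, the standard CAR target, stood at 12.6, 4.96, 10.4, 1.47 and 9.35 CPM on WD and at 0.870, 0, 0.443, 0.0700 and 0.118 on CDA-HFD (log2 -4.67 ± 0.75, adjusted p = 0.00235). The 3 that rose were *Cyp1a1* (1.5), *Cyp1a2* and *Cyp2a5* (1.55). P450 genes of a subfamily share sequence, so reads may be split between them.

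Of 37 urea cycle and amino acid breakdown genes, 7 fell and 0 rose (median -0.41), and 4 fell and 1 rose with libraries scaled by size alone. *Haao*, of tryptophan breakdown, fell by 1.17 (adjusted p = 0.000976), while *Cps1*, the entry enzyme of the urea cycle, was at -0.12 (adjusted p = 0.80). Of 21 bile acid genes, 2 fell, where 7.85% of all genes tested fell. The list median was -0.22, and 0.01 with libraries scaled by size alone. The 2 genes were the conjugating ligase *Slc27a5* (-1.04, adjusted p = 0.00488) and *Cyp2c70* (-1.07, adjusted p = 0.0271). *Cyp7a1*, the rate-limiting enzyme of bile acid synthesis, had means of 378 CPM on CDA-HFD and 198 on WD (0.93, adjusted p = 0.0722, and 1.15 with adjusted p = 0.00514 without liver 5).

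Genes of secreted hepatocyte proteins changed little. Of 22 tested, 1 fell, *Apoa2* (-0.90, adjusted p = 0.0169), and *Alb* stood at 50081, 53910, 53577, 58679 and 59245 CPM on WD and at 54911, 50763, 72941, 76044 and 23909 on CDA-HFD (log2 0.02 ± 0.37, adjusted p = 0.983). The summed level of the list ranged from 95113 to 119322 CPM on WD and from 54907 to 134293 on CDA-HFD, the lowest being liver 5. Of 18 acute phase genes, 3 rose (*Orm2* 1.43, *Saa3* 1.41, *Il1rn* 0.81, not passing without liver 5) and 1 fell. The one that fell was *Hamp2*, a relative of the iron hormone hepcidin, which stood at 59.2, 24.7, 69.8, 117 and 13.7 CPM on WD and at 2.41, 1.83, 2.53, 1.19 and 2.0 on CDA-HFD (log2 -4.83 ± 0.56, adjusted p = 0.000339). *Hamp* itself was at 0.87 without passing, and reads shared between these close relatives may be split.

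Of 16 male-high genes 4 fell and 1 rose, and of 9 female-high genes 2 fell. Of 5 sex chromosome genes tested 0 passed. The Y-linked *Ddx3y* stood at 92.5, 86.3, 69.8, 111 and 109 CPM on WD and at 74.5, 65.2, 61.8, 78.5 and 84.3 on CDA-HFD (adjusted p = 0.0878). It was thus counted in every KO liver. Of 18 clock genes 4 fell, *Nr1d1* (-1.12, adjusted p = 0.00361), *Nfil3* (-0.89), *Dbp* (-0.79) and *Cry2* (-0.28, not passing without liver 5), and the hour of collection is not given in the sources used here. Of 23 NRF2 and oxidative defense genes 4 rose, *Slc7a11*, *Gsta1* (2.58), *Nqo1* (0.88) and *Srxn1* (0.84). *Hmox1* (0.23) and *Gclc* (-0.34) did not pass.

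Several single genes outside these lists were among the largest changes. *Adam11* stood at 128, 109, 117, 143 and 140 CPM on WD and at 5.56, 4.81, 4.24, 2.59 and 9.64 on CDA-HFD, a fall of 23.6-fold (log2 -4.56 ± 0.28, adjusted p = 7.19e-06). *Hcn3*, an ion channel gene, stood at 64.3, 99.1, 40.4, 32.4 and 23.8 CPM on WD and at 5.96, 8.82, 14.6, 5.25 and 6.41 on CDA-HFD (log2 -2.66 ± 0.41, adjusted p = 0.00196). *Cib3*, a calcium-binding protein gene, stood at 3.17, 2.33, 4.77, 2.36 and 0.603 CPM on WD and at 26.3, 16.5, 34.8, 20.7 and 44.4 on CDA-HFD (log2 3.45 ± 0.41, adjusted p = 0.000438). None of the 3 had overlapping groups.

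Macrophage genes rose, most of all in liver 5. Of 14 lipid-associated macrophage markers, 9 rose and 0 fell with a median of 2.05, and without liver 5 on CDA-HFD 8 rose and 2 fell with a median of 1.10. Their summed level ranged from 528 to 810 CPM on WD and from 762 to 3742 on CDA-HFD, and reached no more than 986 in livers 1 to 4. *Gpnmb*, a glycoprotein of lipid-laden macrophages, stood at 29.5, 7.82, 14.4, 4.34 and 1.36 CPM on WD and at 67.9, 44.5, 49.7, 34.4 and 685 on CDA-HFD (log2 3.96 ± 1.04, adjusted p = 0.0256). Without liver 5 the rise was 4.34-fold in place of 15.5-fold and still passed (adjusted p = 0.0294). *Mmp12*, the macrophage elastase, stood at 15.0, 2.25, 3.15, 1.84 and 0.754 CPM on WD and at 35.8, 17.1, 24.8, 23.4 and 191 on CDA-HFD, a rise of 13.0-fold (adjusted p = 0.0185) and of 5.62-fold without liver 5 (adjusted p = 0.0172). *Trem2*, a lipid receptor of the same cells, stood at 4.49, 1.35, 3.42, 1.03 and 0.603 CPM on WD and at 9.57, 6.39, 7.09, 5.74 and 40.6 on CDA-HFD, a rise of 6.49-fold (adjusted p = 0.0227) and of 3.38-fold without liver 5. *Adam8* and *Ltbp2*, both among the 10 largest rises, had the same shape, with 11.1-fold and 9.75-fold rises that became 4.36-fold and 3.42-fold without liver 5. WD liver 1 was the highest of its group for *Gpnmb*, *Mmp12* and *Trem2*.

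General macrophage markers rose in 5 of 14 cases and fell in 0, with summed levels of 486 to 764 CPM on WD and 644 to 1988 on CDA-HFD, at most 759 in livers 1 to 4. With libraries scaled by size alone 10 of them rose. *Cx3cr1* rose by 2.32 (adjusted p = 0.00849, 1.70 without liver 5) and *Itgam* by 2.02 (adjusted p = 0.0217, 1.24 without liver 5), while *Adgre1* (0.49) and *Csf1r* (0.49) did not pass. The resident Kupffer cell markers *Clec4f* (0.03), *Vsig4* (0.01), *Timd4* (-0.27) and *Cd5l* (-0.05) did not pass either, and 2 of 14 Kupffer markers rose, *C1qa* and *Xcr1*, the latter also known from dendritic cells. Of 12 T, NK and B cell markers 5 rose, among them *Cd4* (1.69) and *Cd8a* (1.86, 1.25 without liver 5), and of 6 neutrophil markers 1, *Csf3r* (0.92). *S100a8* (-0.48) and *S100a9* (0.11) did not pass.

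Many matrix genes were also highest in liver 5, although *Fn1*, fibronectin, was lowest there (1741 CPM). Of 34 collagen and matrix genes 18 rose and 0 fell with a median of 1.30, and without liver 5 on CDA-HFD 14 rose with a median of 0.75. *Lum*, a matrix proteoglycan, stood at 14.9, 11, 18.5, 9.94 and 6.56 CPM on WD and at 41.0, 33.0, 29.9, 40 and 272 on CDA-HFD, a rise of 6.87-fold (adjusted p = 0.0168) and of 2.97-fold without liver 5 (adjusted p = 0.00134). *Col1a1*, the main collagen of scars, stood at 112, 51.3, 192, 31.5 and 28.1 CPM on WD and at 218, 201, 169, 117 and 868 on CDA-HFD. Its groups overlapped, and it passed neither with liver 5 (log2 1.93 ± 0.66, adjusted p = 0.0644) nor without it (1.10, adjusted p = 0.153). *Col3a1* (1.52), *Col1a2* (1.62), *Acta2* (-0.11) and *Tgfb1* (0.27) did not pass, whereas *Mmp2* (2.48, 1.44 without liver 5), *Timp2* (1.65, 0.94 without it), *Col6a3* (2.21, 1.57 without it) and *Fbn1* (1.63, 1.15 without it) rose.

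Of 15 stellate cell markers 5 rose, *Pdgfra* 4.02-fold (2.24-fold without liver 5), *Cygb* 3.05-fold (1.86-fold), *Hand2* (1.38), *Gdf2* (1.10) and *Reln* (0.54). *Reln* stood at 271, 299, 278, 278 and 238 CPM on WD and at 379, 359, 406, 391 and 451 on CDA-HFD (adjusted p = 0.00559), a small rise that did not rest on liver 5. Of 13 cholangiocyte markers 5 rose, among them *Epcam* (5.69-fold, 3.12-fold without liver 5) and *Bicc1* (4.03-fold, 2.41-fold), while *Krt19* (1.41) and *Krt7* (1.93) did not pass. In the endothelial list *Cd34*, a marker of capillary endothelium, rose 4.98-fold and 2.42-fold without liver 5, and the sinusoidal genes *Stab2* (-0.23), *Lyve1* (-0.52) and *Clec4g* (0.05) did not pass. The part of changed cell content in these results was not tested.

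**Figure D4:**
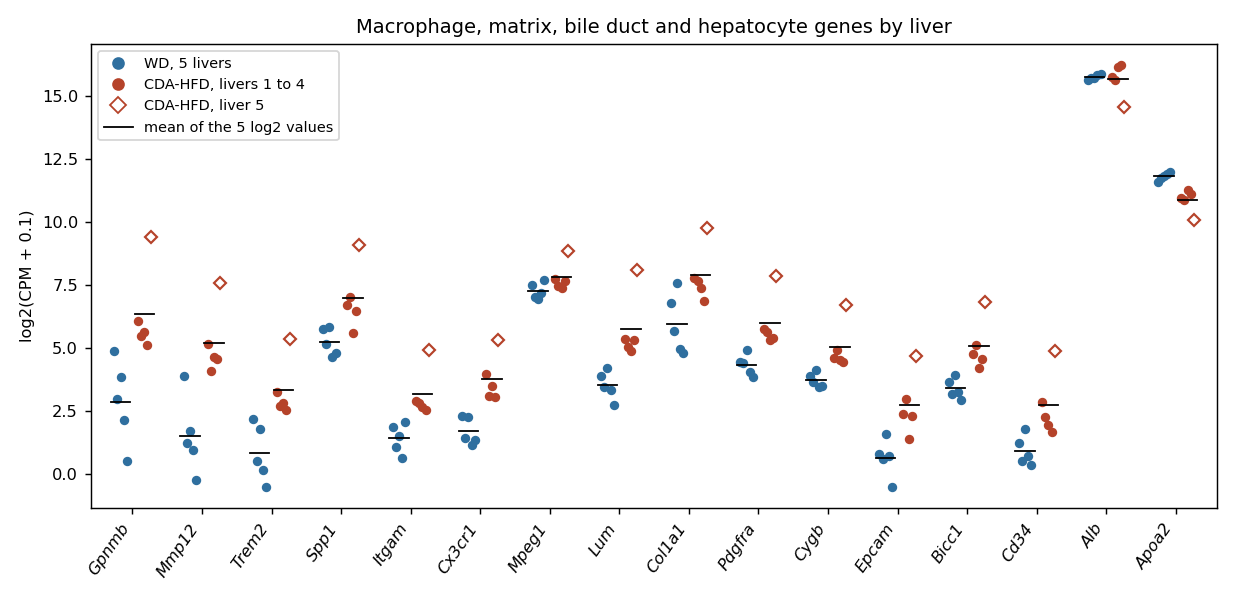
Level in each KO liver, as log2(CPM + 0.1), of 16 macrophage, matrix, stellate, bile duct, endothelial and hepatocyte genes, with WD in blue, CDA-HFD in red and the mean of the 5 log2 values as a black line. Liver 5 on CDA-HFD (open diamonds) is the highest of all 10 livers from *Gpnmb* to *Cd34*, with *Gpnmb* at 685 CPM and *Col1a1* at 868 CPM, and the lowest for *Alb* and *Apoa2*.

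Whether the diet difference depended on *Cideb* was tested as the difference of the 2 diet effects in a fit of all 20 livers. Of 17804 genes tested, 99 passed (0.556%), 59 with a larger value in KO livers and 40 with a smaller one. This count rested on liver 5 on CDA-HFD: without it 2138 genes passed, all 99 among them, and without KO liver 3 on CDA-HFD 35 passed. The balance of directions also moved, with 18 larger and 26 smaller when libraries were scaled by size alone, 16 and 19 without KO liver 3 on CDA-HFD, and 1110 and 1028 without liver 5. In this fit *Meg3* stood at 236 CPM on CDA-HFD and 0.987 on WD in KO livers, and at 39.2 and 0.812 in WT livers, a difference of the log2 fold changes of 2.29 ± 0.36 (adjusted p = 0.00704). It rose in both genotypes, and further in KO livers. *Rtl1* (3.15, adjusted p = 0.115) and *Rian* (1.65, adjusted p = 0.169) had differences in the same direction that did not pass. Without liver 5 *Rtl1* passed (3.38, adjusted p = 0.00704) and *Rian* was at 1.73 (adjusted p = 0.0514).

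Interferon-induced genes were among those whose diet difference was larger in KO livers. *Usp18* stood at 59.7 CPM on CDA-HFD and 11.9 on WD in KO livers and at 30.5 and 15.2 in WT livers (difference 1.33 ± 0.27, adjusted p = 0.0282), a call lost in 13 of 25 alternatives. *Gbp10*, an interferon-induced GTPase, stood at 27.8 and 5.65 CPM in KO livers and at 7.11 and 7.43 in WT livers (difference 2.35 ± 0.39, adjusted p = 0.00958). *Ifi27* stood at 138 and 57.5 CPM in KO livers and at 73.5 and 70.8 in WT livers (difference 1.2 ± 0.20, adjusted p = 0.00785). *Gbp10* and *Ifi27* thus rose on CDA-HFD in KO livers and were at log2 -0.06 and 0.05 in WT livers. Of the 25 interferon and chemokine genes tested in WT livers 19 rose, and *Usp18* was the only member of that list to pass the test of the difference.

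Of the metabolic genes with a passing difference, *Prodh*, *Lipe*, *Abcc3* and *Ptdss1* fell in WT livers, and *Lipe* was the one that also fell in KO livers (not passing there without liver 5). *Xdh*, the purine-degrading xanthine dehydrogenase, stood at 529 CPM on CDA-HFD and 307 on WD in KO livers and at 315 and 341 in WT livers (difference 0.90 ± 0.12, adjusted p = 0.0017). *Prodh*, the proline dehydrogenase, stood at 214 and 221 CPM in KO livers and at 89.2 and 218 in WT livers (difference 1.24 ± 0.21, adjusted p = 0.0107). *Lipe*, the hormone-sensitive lipase, stood at 17.6 and 24.7 CPM in KO livers and at 10.2 and 28.3 in WT livers (difference 0.99 ± 0.18, adjusted p = 0.0172). *Xdh* rose in KO livers and did not pass in WT livers. The difference was 0.70 for the transporter *Abcc3* (adjusted p = 0.0475) and 0.48 for the phosphatidylserine synthase *Ptdss1* (adjusted p = 0.037), calls lost in 21 and 16 of 25 alternatives. *Wnt2* stood at 5.97 and 2.42 CPM in KO livers and at 3.39 and 3.35 in WT livers (difference 1.28 ± 0.25, adjusted p = 0.024), a call lost in 8 of 25 alternatives.

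*Esm1*, an endothelial proteoglycan gene, stood at 0.267 CPM on CDA-HFD and 6.09 on WD in KO livers and at 2.09 and 4.42 in WT livers (difference -3.38 ± 0.49, adjusted p = 0.00342). It fell in both genotypes and further in KO livers. *Steap2*, a metalloreductase, stood at 14.3 and 22.4 CPM in KO livers and at 27.1 and 12.9 in WT livers (difference -1.72 ± 0.24, adjusted p = 0.00242), and it fell in the former and rose in the latter on the TMM scale. Ribosomal protein genes were frequent among the smaller values in KO livers: of 77 tested, 25 passed down and 0 up, with a median difference of -0.58 against 0.02 over all genes, and 60 passed down without liver 5 on CDA-HFD. On the TMM scale their median between the diets was -0.06 in KO livers and 0.52 in WT livers. *Rpl26* (-0.98), *Rpl32* (-0.80) and *Rps27a* (-1.16) were the named members, and since these genes have many processed pseudogenes their counts are uncertain. The test of the difference was not passed by any member of the lipogenesis, fatty acid oxidation, cholesterol synthesis or matrix lists, with *Scd1* at -3.00 (adjusted p = 0.116, and -4.05 with adjusted p = 0.00274 without liver 5).

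**Figure D5:**
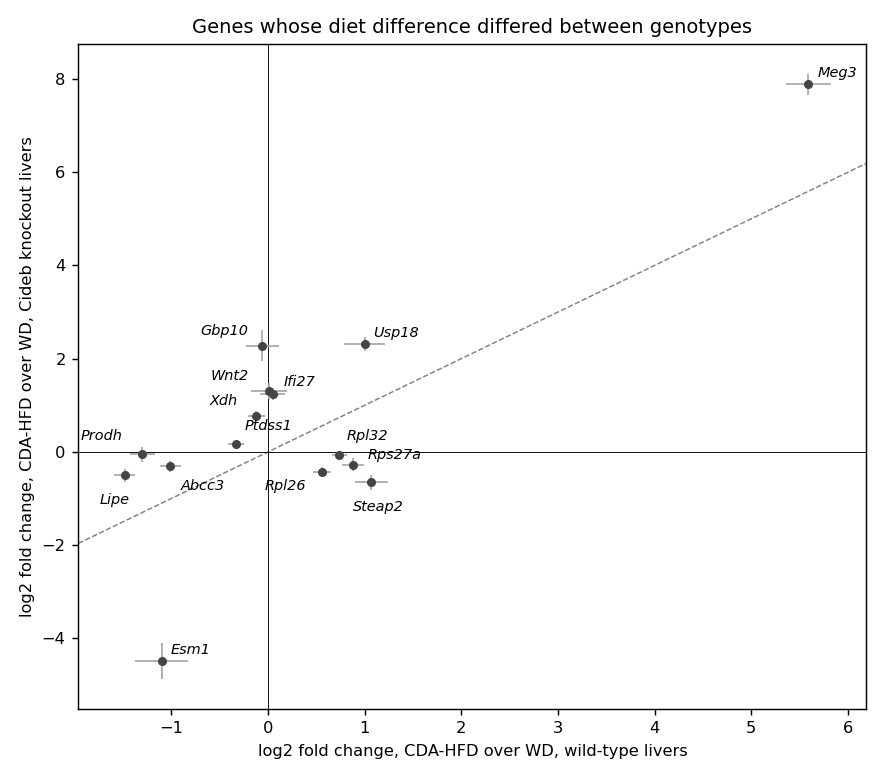
Log2 fold change between CDA-HFD and WD in KO livers (vertical axis) against that in WT livers (horizontal axis) for the 15 named genes whose diet difference differed between the genotypes, with bars of 1 SE in either direction. The dashed line marks equal fold changes: *Meg3*, *Gbp10* and *Usp18* lie above it and *Esm1*, *Steap2* and the ribosomal protein genes below it.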

How the data were processed

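RNA-seq of 20 mouse livers was used, of which the 10 KO livers, 5 on each diet, made the main comparison. The authors deposited raw read counts per gene, whole numbers without normalization. Per the submitters' processing notes the build was mm10, while the aligner, the counting program and its use of strand are not given in the sources used here, and the labels and the study's methods describe different library kits. Entries for unassigned reads were left out of library sizes and tests. A count of 3 reads corresponded to 0.176 to 0.27 CPM. Intervals cover counting error only. Counts were fitted in R 4.3.3 with edgeR 4.0.16 (filterByExpr, TMM, quasi-likelihood F test, Benjamini-Hochberg adjusted p under 0.05), and the difference between genotypes was fitted on all 20 livers. Library measures were compared by exact permutation in Python 3.11.15. Within a group no library was a copy of another, with a chi-square of 9.71 to 124 per degree of freedom between pairs of libraries.

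Genes given by liver were the CIDE family and *Nop9*, the 10 largest rises and the 10 largest falls (passing, groups not overlapping, average log2 CPM 3 or higher, no predicted genes), the 2 largest passing members and the most abundant member of each of 37 lists, and, between genotypes, the 5 genes of smallest p in each direction and passing list members. Levels by liver of *Cyp51*, *Srebf2*, *Isg15*, *Mki67*, *Axin2*, *Glul*, *Trem2*, *Spp1*, *Col1a1*, *Plin2*, *Mirg* and *Vldlr*, and the promoter motifs, were chosen after the values were seen. The comparison and the lists were chosen with earlier results of these data known. Each list was described by counts and its median, with no test of the list. Alternatives were DESeq2 1.42.0, RLE factors, scaling by library size, a looser and a stricter count filter, a fit with all 20 livers, the replicate block and each library left out in turn. Some members of the lists are counted but not reported by name here. The fits were tested on simulated data.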

Additional observations from a re-analysis of the deposited data

Results flagged for a closer look

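A liver was singled out where its gap to the nearest of its group, divided by the range of the 5 livers, was above 0.71, which chance gives in about 1 of 20 groups. This happened in 34 of 276 checks, and 24 of the 34 were liver 5 on CDA-HFD, so that the flags are not independent of each other. In that liver the macrophage genes *Gpnmb* (685 CPM), *Mmp12* (191), *Adam8* (59.3), *Trem2* (40.6), *Spp1* (549), *Ctsd* (1140), *Cx3cr1* (40.4), *Itgam* (30.3), *Mpeg1* (458) and *C1qa* (114) were far above the other 4. The matrix and stellate cell genes *Ltbp2* (130 CPM), *Lum* (272), *Col1a1* (868), *Pdgfra* (232) and *Cygb* (105) were too, as were the bile duct genes *Epcam* (26.0) and *Bicc1* (113), the endothelial *Cd34* (29.6) and the plasma cell gene *Jchain* (34.9). Outside these cell types, liver 5 was high for *Scd1* (68.0 CPM), *Soat1* (69.3), *Slc7a11* (9.05), *Vldlr* (5.64) and *Rps27a* (48.4).

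Among the other livers on CDA-HFD, liver 3 was high for the male-high gene *Selenbp2* (288 CPM) and for *Aqp1* (155), and liver 1 for *Plin2* (488). On WD, liver 1 was high for *Mmp12* (15.0 CPM), liver 2 for *C6* (320) and *Jchain* (12.6), liver 3 for *Nop9* (31.9) and *Aqp1* (144), and liver 4 for *Nr1d1* (99.4). WD liver 3 also had the largest share of unaligned reads, 6.82%.

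The diet difference differed between KO and WT livers, in the test of that difference, for 15 named genes. The log2 difference was positive for *Meg3* (2.29), *Gbp10* (2.35), *Usp18* (1.33), *Wnt2* (1.28), *Prodh* (1.24), *Ifi27* (1.2), *Lipe* (0.99), *Xdh* (0.90), *Abcc3* (0.70) and *Ptdss1* (0.48). It was negative for *Esm1* (-3.38), *Steap2* (-1.72), *Rps27a* (-1.16), *Rpl26* (-0.98) and *Rpl32* (-0.80).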

How the results depend on the processing

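No named gene changed sign under an alternative while passing before or after. With library size only 7 named genes that passed on neither scale changed sign, among them *Prodh* (-0.05 to 0.20), *Rpl32* (-0.06 to 0.20) and *Cps1* (-0.12 to 0.10). The 2792 genes passing between the diets became 2796 with RLE size factors, 3924 with library size only, 3658 with DESeq2, 2831 with no filter on counts, 2326 with at least 10 counts in every library and 4476 with all 20 libraries in one fit. Leaving out each liver in turn gave 1568 to 2881, with 1568 without WD liver 2, 1769 without WD liver 4 and 1775 without WD liver 5. Rises outnumbered falls, 1506 to 1286, but not without WD liver 2 (765 to 803) or WD liver 4 (855 to 914). The count at least 2-fold, 1192, became 791 with at least 10 counts in every library and 1827 with all 20 libraries, and 816 to 1423 with each liver left out. The 99 genes that differed between genotypes became 427 with DESeq2, 44 with library size only, and 35 to 2138 with each liver left out, 35 without KO liver 3 on CDA-HFD and 2138 without KO liver 5 on CDA-HFD. It was 38 and 63 without KO livers 1 and 2 on CDA-HFD, 54, 54 and 65 without KO livers 1, 2 and 4 on WD, 36 and 51 without WT livers 3 and 5 on CDA-HFD, and 60, 50, 36 and 53 without WT livers 2, 3, 4 and 5 on WD. Larger values in KO livers outnumbered smaller ones, 59 to 40, but not with library size only (18 to 26), nor without KO liver 1 (18 to 20) or 3 (16 to 19) on CDA-HFD, KO liver 1 (22 to 32) or 2 (21 to 33) on WD, WT liver 3 on CDA-HFD (18 to 18), or WT liver 2 (28 to 32), 3 (25 to 25), 4 (15 to 21) or 5 (25 to 28) on WD. A replicate block on the label numbers gave 2044 genes between the diets, 910 at least 2-fold, and 63 between genotypes. The numbers did not pair the livers: same-numbered livers correlated between -0.171 and 0.374, and 1 of 5 correlated best with its own number. For the named genes, 122 results of single alternatives no longer passed between the diets, 37 newly passed and 1840 were unchanged in call. Calls that lapsed most often were those of *Aldh7a1* (12 alternatives), *Bbc3* and *Smlr1* (9 each), *Cidec* and *Axin2* (8 each) and, between genotypes, *Abcc3* (21), *Ptdss1* (16), *Usp18* (13) and *Wnt2* (8). The cause was not tested. Depth limits what can be said of genes with few reads on at least 1 diet, among them *Cidea*, *Mirg*, *Asns* and *Slc7a11*. It also limits *Rtl1* and *Rian*, with 20 and 29 reads over the WD livers. The same holds for *Cyp2b10* and *Esm1*, with 23 and 20 reads over the CDA-HFD livers of KO mice.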
